A study of Mus musculus with 25 samples.

Results

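Livers that had lost both p53 and the retinoblastoma protein (DKO) were compared with wild-type livers (WT) 24 h after the carcinogen diethylnitrosamine (DEN). The arrays were chosen by their labels alone: 5 arrays of livers with both genes labelled KO and treatment DEN, and 5 with both genes labelled WT and treatment DEN, of 25 arrays in all. In the DKO mice both genes carried loxP sites and Cre recombinase was driven by the albumin promoter, a promoter of hepatocytes, so that endothelial and blood cells keep both genes. Whether the WT mice carried Cre is not given in the sources used here. All mice are labelled as strain FVB;129 and the DEN groups had received DEN intraperitoneally at 20 mg/kg and 14 days of age. Values of 5 p53KO and 4 RbKO livers after the same treatment, and of 3 DKO and 3 WT livers labelled as untreated (the study's design names saline), are given for context. Whether the replicates of a group are different animals is not given in the sources used here; the tests then reflect only how far these samples vary, which may be technical. The number of arrays limits the precision.

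DEN is converted by cytochromes P450 of hepatocytes into a compound that alkylates DNA. The transcription factor p53 accumulates after such damage and activates genes of cell cycle arrest, repair and cell death, and also Mdm2, its own inhibitor. The retinoblastoma protein, the product of Rb1, binds E2F factors and keeps the genes of DNA synthesis and mitosis low in resting cells. The liver of a young mouse is leaving the fast growth of the fetal organ and taking up its adult metabolic work.

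All signals are log2 values, on which a difference of 1 is a factor of 2, and all differences are DKO minus WT unless stated. The array names place replicates 1 to 3 of DKO and of WT in set 1, WT replicates 4 and 5 in set 2, and DKO replicates 4 and 5 in set 3. Set 2 stood apart on the first principal component (25.8% of the variance, mean 46.6, against -11.8 in set 1 and 0.641 in set 3). Each difference was therefore estimated from all 25 arrays in a model with an array set term. For many lists and some genes the estimate from set 1 alone stands beside it. A gene without one is not thereby shown to keep its size in set 1. Xist, transcribed from the inactive X chromosome of females, was at 3.37, 3.41, 10.00, 3.83 and 10.07 in DKO, against 3.49, 3.52, 3.38, 3.92 and 3.84 in WT. Eif2s3y, a gene of the Y chromosome, was at 7.29, 7.16, 2.40, 7.76 and 4.17 in DKO, against 7.37, 7.22, 6.74, 6.81 and 6.49 in WT. Both were looked up after the values were seen, the labels give no sexes, and counts without DKO replicates 3 and 5 are given below. The highest correlation between any 2 of the 25 arrays was 0.993.

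Rb1 itself, on chromosome 14, had log2 signals of 5.18, 5.57, 5.51, 5.82 and 5.35 in DKO, against 6.02, 5.90, 5.82, 5.97 and 5.04 in WT. All DKO arrays lay below 4 of the WT arrays, and WT replicate 5 lay below all of them. The difference was -0.29 (SE 0.19, adjusted p = 0.355) by limma with all arrays, and -0.49 (adjusted p = 0.0136) within set 1. Whether the probes lie in the deleted part of the gene is not given in the sources used here, so this is a weak check of the label. Trp53 was not analysed here.

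By limma, 1887 of 15951 genes tested (11.8%) differed between DKO and WT after DEN at a Benjamini-Hochberg adjusted p under 0.05; such genes are called. Of these, 429 (2.69% of the genes tested) were higher and 1458 (9.14%) lower in DKO, so that 77.3% of the calls were lower, and the median difference of all genes was -0.03. After a further quantile normalization 66.6% of the calls were lower. All 1887 had the same sign within set 1, and 1283 (68%) were called there too, where 1731 genes were called in all (10.9%, with 2.88% higher and 7.97% lower). The fit with all arrays includes set 1, the only set that holds both groups (3 arrays of each). The agreement in sign is therefore largely built in and is no separate check. Without DKO replicate 3 the genes called higher numbered 233, and without DKO replicates 3 and 5 there were 237 higher and 1008 lower. All 5 DKO values lay above all 5 WT values for 355 genes (2.23%) and below them for 939 (5.89%).

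**Figure D1:**
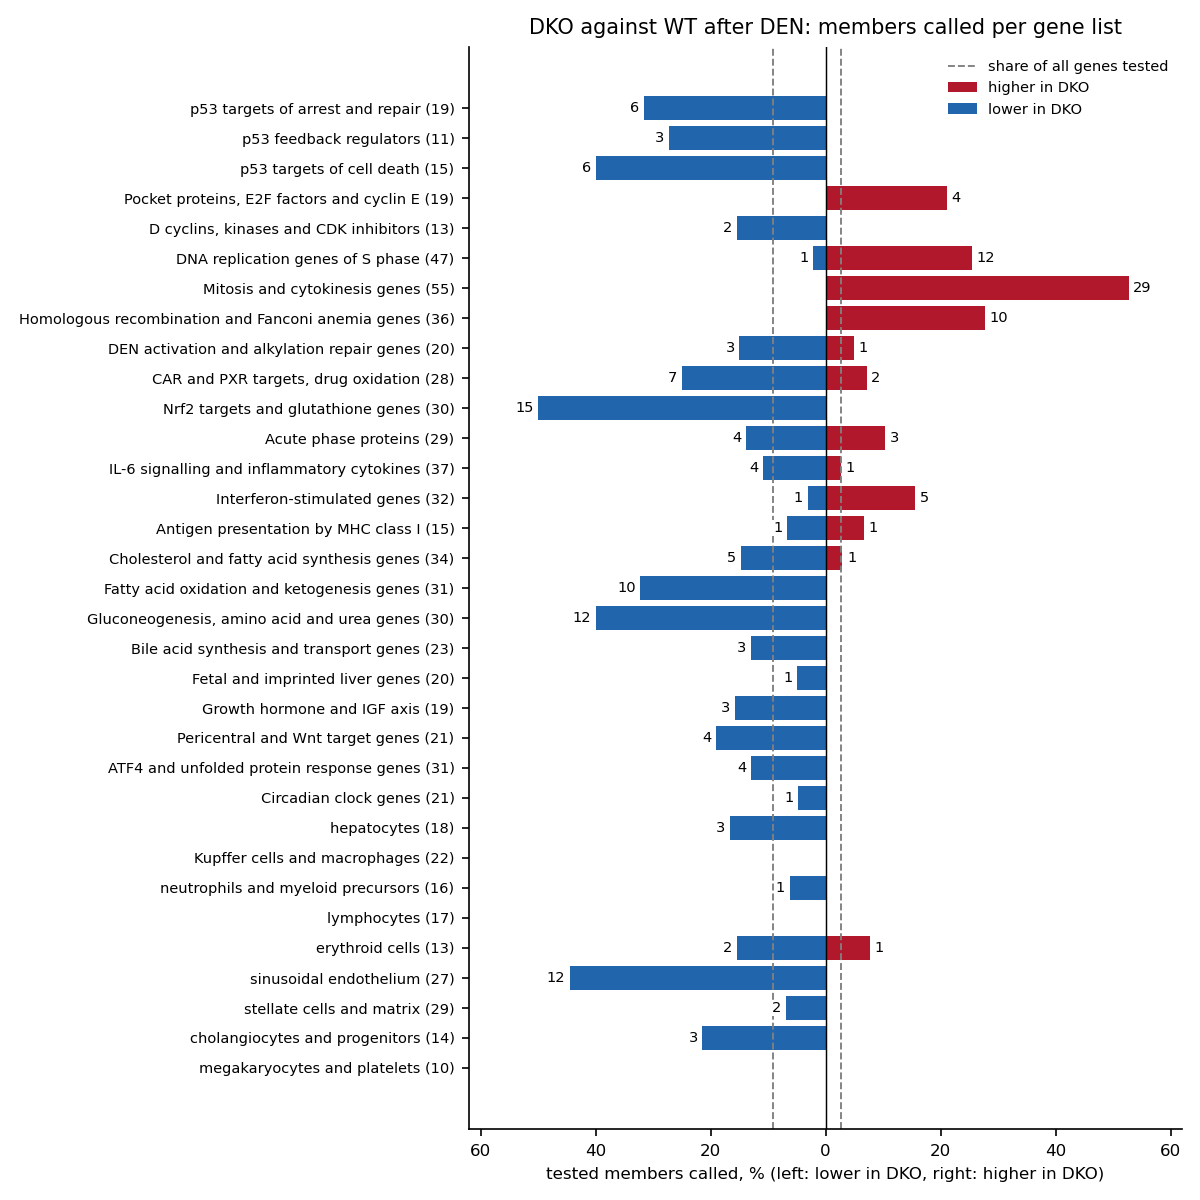
Share of the tested members of each gene list (number tested in brackets) that was called higher (to the right) or lower (to the left) in DKO than in WT after DEN, in percent, with the number of called members at the bar end; dashed lines mark the same shares of all genes tested (2.69% higher and 9.14% lower). Mitosis genes had 29 of 55 members called higher, and Nrf2 targets 15 of 30 called lower.

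Genes listed as p53 targets of arrest and repair were lower in DKO or not called. Of 19 tested, 0 were called higher (2.69% of all genes), 6 lower (9.14% of all genes) and 13 not called, with a median difference of -0.37 (-0.42 within set 1, where 9 were lower). Ephx1, a microsomal epoxide hydrolase listed also among the Nrf2 targets, had log2 signals of 7.86, 7.78, 8.12, 7.83 and 7.37 in DKO, against 9.59, 10.07, 9.64, 8.96 and 9.69 in WT. Every DKO value lay below every WT value, with a difference of -1.89 (SE 0.16, adjusted p = 1.09e-07), or 3.7 times lower. Plk2, a kinase of the damage checkpoint, was at 5.68, 5.91, 6.02, 6.73 and 6.18 in DKO, against 8.57, 7.74, 6.95, 7.24 and 6.52 in WT. It fell by 1.48 (SE 0.29) (adjusted p = 0.00163), and only DKO replicate 4 reached above a WT array. The antiproliferative gene Btg2 was at 6.49, 6.57, 6.64, 7.31 and 6.93 in DKO, against 8.68, 8.19, 7.39, 9.08 and 7.09 in WT, with a difference of -1.35 (SE 0.36, adjusted p = 0.0160). Its call ended without WT replicate 1 (adjusted p = 0.0575), without DKO replicate 1, or without DKO replicates 3 and 5. Polk encodes a polymerase that copies past damaged bases; it ranged over 6.03 to 6.76 in DKO, against 6.42 to 7.29 in WT, and differed by -0.66 (SE 0.15, adjusted p = 0.00551). Without DKO replicates 3 and 5, 3 of the 19 were called lower.

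The list of p53 feedback regulators had 0 of 11 members called higher, 3 lower and 8 not called, at a median of -0.11 (-0.09 within set 1). It holds regulators through which p53 limits itself, and also Trp63, Trp73, Trp53inp1, Trp53inp2 and Wrap53. Mdm2, the ubiquitin ligase that removes p53, was at 6.74, 6.50, 6.73, 8.50 and 7.53 in DKO, against 8.24, 8.16, 7.35, 7.99 and 7.59 in WT. The 3 DKO arrays of set 1 lay below all WT arrays, DKO replicate 5 lay within their range and DKO replicate 4 above it. The difference was -0.91 (SE 0.23, adjusted p = 0.0115) with all arrays and -1.26 within set 1, and its adjusted p was 0.0595 without DKO replicates 3 and 5. With no set term the difference was -0.66 (adjusted p = 0.0946). Ccng1 (cyclin G1), which is on the list of arrest genes too, was at 8.77, 8.73, 9.15, 9.86 and 9.11 in DKO, against 10.05, 10.04, 9.69, 9.94 and 9.94 in WT. Only DKO replicate 4 reached the WT range, and the difference was -0.68 (SE 0.21, adjusted p = 0.0346). Ppm1d, the phosphatase Wip1, ranged over 5.97 to 6.33 in DKO, against 6.32 to 6.91 in WT, with a difference of -0.46 (SE 0.15, adjusted p = 0.0385). The calls of Ccng1 and Ppm1d each ended without any 1 of DKO replicates 1 to 3 or WT replicates 1 and 2, with adjusted p up to 0.127 and 0.135, and that of Ppm1d also without DKO replicate 4 or WT replicate 5. Leaving out any 1 of DKO replicates 1 to 3 or WT replicates 1 and 2 moved the count of 3 by over 1.5 times, to as few as 1.

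Genes listed as p53 targets of cell death had 0 of 15 members called higher, 6 lower and 9 not called. Their median was -0.49 (-0.61 within set 1, where 9 were lower). Phlda3, an inhibitor of Akt signalling, was at 5.12, 5.20, 5.56, 5.06 and 4.80 in DKO, against 6.91, 6.73, 6.10, 5.89 and 5.75 in WT. The groups did not overlap, and the difference was -1.14 (SE 0.18, adjusted p = 0.000285). Sulf2, an extracellular sulfatase, was at 5.50, 5.52, 5.01, 4.91 and 4.59 in DKO, against 5.88, 6.37, 6.28, 5.68 and 5.77 in WT. Again every DKO value was below every WT value, for a difference of -0.90 (SE 0.16, adjusted p = 0.000862). Tnfrsf10b, the death receptor of TRAIL, was at 4.68, 4.34, 4.79, 5.04 and 4.32 in DKO, against 6.22, 6.06, 5.35, 5.40 and 4.89 in WT. Only DKO replicate 4 lay above a WT array, and the difference was -1.11 (SE 0.21, adjusted p = 0.00137). Without DKO replicates 3 and 5, 4 of the 15 were called lower.

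**Figure D2:**
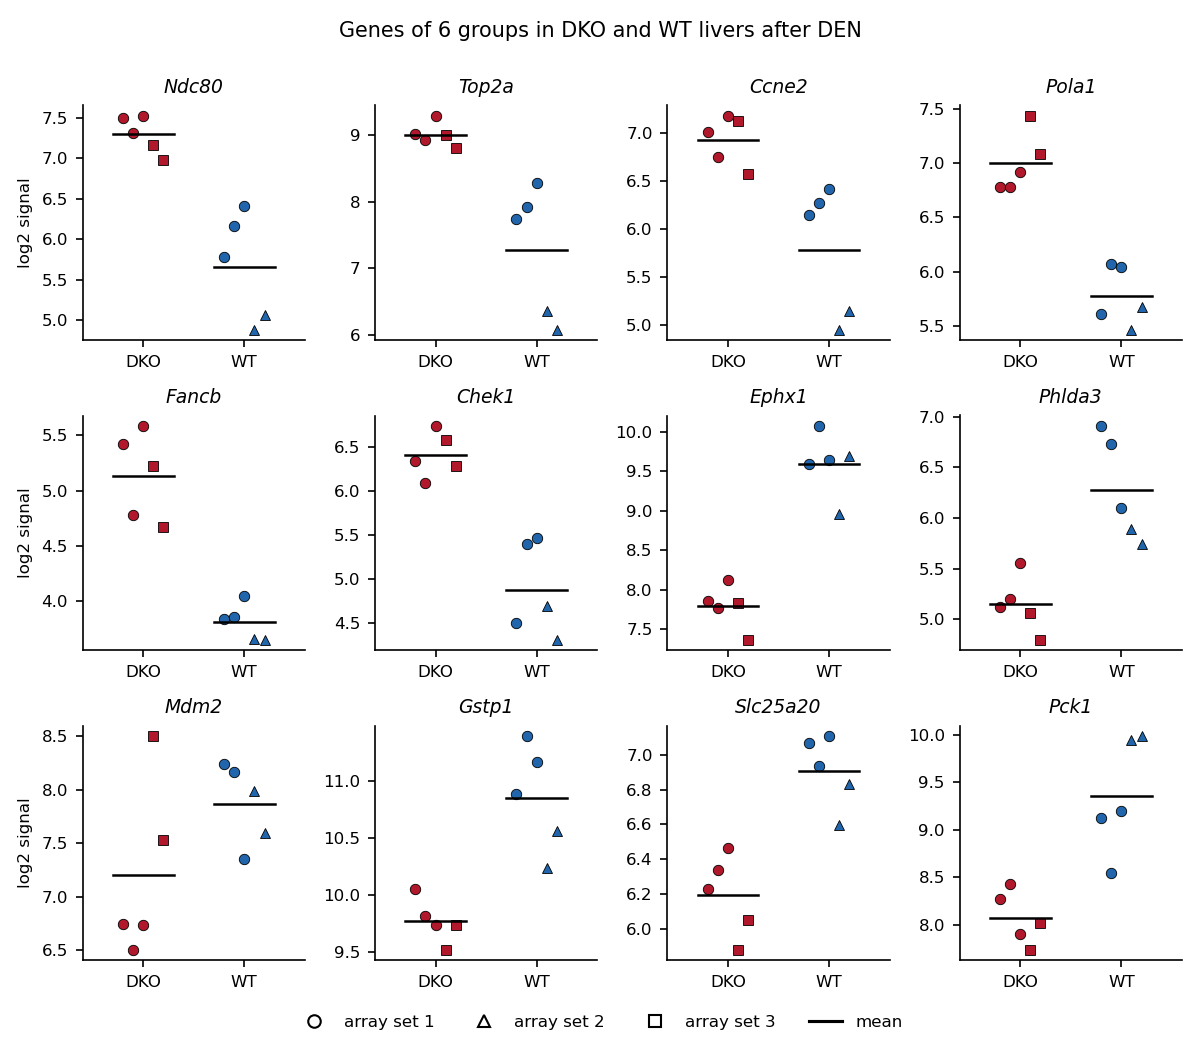
Log2 signal of 12 genes on each of the 5 DKO arrays (left) and 5 WT arrays (right) after DEN; circles, triangles and squares are array sets 1, 2 and 3, and lines are group means. Of these 12 genes, Mdm2 is the one whose groups overlap, with DKO replicate 4 at 8.50 above all WT arrays.

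The pocket proteins, E2F factors and cyclins E and A2, which form the switch into S phase, had 4 of 19 members called higher, 0 lower and 15 not called, at a median of 0.09 (0.06 within set 1). Ccne2 (cyclin E2), which starts S phase with Cdk2, had log2 signals of 7.00, 6.74, 7.17, 7.12 and 6.57 in DKO, against 6.15, 6.27, 6.41, 4.95 and 5.14 in WT. All DKO arrays exceeded all WT arrays, and the difference was 1.05 (SE 0.24, adjusted p = 0.00524). Ccna2 (cyclin A2), which acts in S phase and at entry into mitosis, was at 7.75, 7.57, 7.75, 7.31 and 7.34 in DKO, against 7.05, 6.91, 6.94, 6.06 and 5.58 in WT. The groups did not overlap, with a difference of 1.05 (SE 0.28, adjusted p = 0.0152), and the call ended without DKO replicates 3 and 5. The repressor E2f8 ranged over 5.43 to 6.45 in DKO, against 4.49 to 5.90 in WT, with a difference of 0.77 (SE 0.23, adjusted p = 0.0316). Its call ended without any 1 of DKO replicates 1 to 3 or WT replicates 1 and 5 (adjusted p up to 0.119). The count of 4 was 2 without any 1 of those 5 arrays, and without WT replicate 3 there were 4 higher and 1 lower, as within set 1. Without set 2 there were 2 higher and 1 lower, and E2f8 was not called. D cyclins, their kinases and CDK inhibitors had 0 of 13 called higher, 2 lower and 11 not called (15.4% called, near the 11.8% of all genes). Their median was 0.01. Within set 1, 2 were called higher and 1 lower, at a median of -0.06. The lower members were Ccnd1 (cyclin D1), at -1.24 (SE 0.20, adjusted p = 0.000356), and Ccnd2, at -0.51 (SE 0.16, adjusted p = 0.0317), both named after their values were seen. Their count was 1 without any 1 of WT replicates 2 and 5 or DKO replicate 3, and without DKO replicate 4 there was also 1 higher.

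Genes of DNA replication were called higher for 12 of 47 members, lower for 1 and not called for 34, at a median of 0.20 (0.23 within set 1). Pola1, the catalytic subunit of the polymerase that primes each new strand, was at 6.78, 6.78, 6.92, 7.43 and 7.09 in DKO, against 5.61, 6.07, 6.04, 5.46 and 5.67 in WT. Its lowest DKO value lay above its highest WT value, and the difference was 1.02 (SE 0.17, adjusted p = 0.000326). Gmnn (geminin), which blocks a repeated firing of origins, was at 6.54, 6.73, 6.81, 6.19 and 6.64 in DKO, against 6.09, 5.78, 6.05, 4.62 and 4.73 in WT. It differed by 0.75 (SE 0.16, adjusted p = 0.00257) without overlap. Rfc4, a subunit of the clamp loader, ranged over 6.37 to 7.07 in DKO, against 5.14 to 6.06 in WT, and Rpa3, a subunit of the single-strand binding protein, over 7.83 to 8.24 in DKO, against 5.11 to 7.61 in WT. Their differences were 0.97 (SE 0.21, adjusted p = 0.00418) and 0.90 (SE 0.20, adjusted p = 0.00501). The WT arrays of set 2 were the lowest for Gmnn, Rfc4 and Rpa3. Rfc2, another clamp loader subunit and the member called lower, differed by -0.69 (SE 0.16, adjusted p = 0.00524), or -0.37 (adjusted p = 0.327) with no set term. The count of 12 was 5 without DKO replicate 3, 7 without WT replicate 1, 8 without set 2 and 5 without DKO replicates 3 and 5.

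Genes of mitosis and cytokinesis had the highest share of calls among the 33 lists. Of 55 tested, 29 were called higher (52.7%), 0 lower and 26 not called, and for 34 every DKO value exceeded every WT value, as for 2.23% of all genes. The median difference was 0.73, or 0.63 within set 1, where 32 were called higher. The mean over the list lay between 6.34 and 6.58 on the DKO arrays, against 4.83 to 5.99 on the WT arrays. The count was 16 without DKO replicate 3, 18 without DKO replicates 3 and 5, and 19, with a median of 0.46, without set 2.

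The promoters of 4 of the cell cycle genes that rose are shown because they hold the letters through which E2F factors and the complexes that silence mitotic genes in resting cells are known to act. The letters TTTCCCGC and TTTGGCGC (E2F) and TTTGAA (the cell cycle homology region, CHR) were searched on both strands of RefSeq promoter windows of GRCm38.p6, from 250 bases before to 50 bases after the gene start. The E2F letters and the CHR letters were counted separately and may stand in the same window. In the 250 bases before the start printed here, 5′ to 3′ along the gene, capitals mark CHR letters in Ncapg (chr5:45669675-45669924, plus strand) and Top2a (chr11:99024190-99024439, minus strand), and E2F letters in Kif18a (chr2:109280488-109280737, plus strand) and Pola1 (chrX:93632156-93632405, minus strand).
Ncapg: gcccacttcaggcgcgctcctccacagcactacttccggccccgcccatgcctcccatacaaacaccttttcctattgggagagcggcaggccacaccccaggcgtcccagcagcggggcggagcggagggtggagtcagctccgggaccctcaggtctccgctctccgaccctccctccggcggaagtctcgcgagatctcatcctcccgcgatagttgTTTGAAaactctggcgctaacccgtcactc
Top2a: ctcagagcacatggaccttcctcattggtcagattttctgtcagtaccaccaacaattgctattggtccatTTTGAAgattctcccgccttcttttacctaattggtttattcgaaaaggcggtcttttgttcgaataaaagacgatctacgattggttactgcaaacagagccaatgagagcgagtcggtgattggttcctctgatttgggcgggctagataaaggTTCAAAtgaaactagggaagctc
Kif18a: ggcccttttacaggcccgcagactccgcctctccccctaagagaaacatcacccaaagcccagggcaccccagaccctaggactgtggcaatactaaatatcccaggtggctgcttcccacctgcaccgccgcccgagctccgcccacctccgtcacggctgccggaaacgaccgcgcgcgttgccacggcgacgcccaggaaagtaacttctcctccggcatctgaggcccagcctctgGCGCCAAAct
Pola1: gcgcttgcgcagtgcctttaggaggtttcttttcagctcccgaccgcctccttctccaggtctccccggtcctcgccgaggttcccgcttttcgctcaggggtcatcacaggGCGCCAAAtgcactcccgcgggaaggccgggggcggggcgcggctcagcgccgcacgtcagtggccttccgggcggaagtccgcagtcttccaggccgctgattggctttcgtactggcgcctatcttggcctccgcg

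CHR letters stood in 17.893% of all 32851 windows, in 35 of 50 windows of mitosis genes (70.0%) and in 7 of 47 of replication genes (14.894%). E2F letters stood in 1.565% of all windows, in 5 of the 50 (10.0%) and in 13 of the 47 (27.66%). Among the windows of called members, CHR letters stood in 18 of 30 for mitosis (60.0%), and E2F letters in 4 of 9 for replication (44.444%). A match describes these letters and shows no binding.

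Ndc80, a kinetochore protein that holds spindle microtubules, had log2 signals of 7.50, 7.32, 7.52, 7.17 and 6.98 in DKO, against 5.78, 6.17, 6.41, 4.88 and 5.07 in WT. The difference was 1.44 (SE 0.21, adjusted p = 0.000172), or 2.72 times higher in DKO. Ncapg, a condensin subunit with the CHR letters shown above, was at 7.71, 7.35, 7.88, 8.06 and 7.90 in DKO, against 6.34, 6.50, 6.79, 4.85 and 4.83 in WT, and differed by 1.50 (SE 0.30, adjusted p = 0.00197). Top2a, the topoisomerase that untangles sister chromatids, was at 9.02, 8.93, 9.29, 9.00 and 8.81 in DKO, against 7.74, 7.92, 8.28, 6.36 and 6.07 in WT, with a difference of 1.36 (SE 0.29, adjusted p = 0.00349); a dim second probe set gave 0.24. Kif18a, a kinesin that shortens spindle microtubules, was at 4.71, 4.86, 5.23, 5.27 and 5.30 in DKO, against 3.71, 4.04, 4.17, 3.36 and 3.32 in WT, with a difference of 1.22 (SE 0.23, adjusted p = 0.00121). Sgo1 (shugoshin), which guards centromeric cohesion, ranged over 5.32 to 6.02 in DKO, against 4.17 to 5.30 in WT, and differed by 0.94 (SE 0.19, adjusted p = 0.00200). Bub1, a kinase of the spindle checkpoint, was at 6.97, 6.90, 7.27, 7.50 and 7.33 in DKO, against 5.83, 6.03, 6.26, 3.88 and 4.17 in WT, with a difference of 1.48 (SE 0.33, adjusted p = 0.00449), or 1.01 within set 1. For each of these 6 genes every DKO array was above every WT array, and the WT arrays of set 2 were the lowest.

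Homologous recombination and Fanconi anemia genes, which mend breaks and crosslinks in copied DNA, had 10 of 36 members called higher, 0 lower and 26 not called, at a median of 0.27 (0.26 within set 1, where 14 were higher). Fancb, of the Fanconi core complex, was at 5.42, 4.77, 5.58, 5.23 and 4.67 in DKO, against 3.84, 3.86, 4.04, 3.65 and 3.65 in WT. The groups lay well apart, with a difference of 1.25 (SE 0.20, adjusted p = 0.000285). Chek1, the kinase that halts cells with stalled replication, was at 6.33, 6.09, 6.73, 6.58 and 6.27 in DKO, against 4.50, 5.40, 5.47, 4.69 and 4.31 in WT. Its difference was 1.26 (SE 0.23, adjusted p = 0.000853), again without overlap. The strand exchange genes Rad54b and Rad51c ranged over 5.91 to 6.28 in DKO, against 4.64 to 5.46 in WT, and over 4.89 to 5.50 in DKO, against 3.51 to 4.77 in WT. They differed by 0.85 (SE 0.19, adjusted p = 0.00458) and 0.65 (SE 0.15, adjusted p = 0.00548). The helicase gene Brip1 differed by 0.76 (SE 0.20, adjusted p = 0.0127), a call that ended without DKO replicate 3 (adjusted p = 0.0531) and without DKO replicates 3 and 5. The count of 10 was 5 without DKO replicate 3, 5 without set 2, 6 without DKO replicate 2 and 6 without DKO replicates 3 and 5.

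Of the 12 largest rises, Bub1 and Ncapg were described above. Shcbp1, a protein of the spindle midzone, was at 7.74, 7.44, 7.98, 7.92 and 8.00 in DKO, against 6.42, 6.39, 6.45, 5.10 and 4.64 in WT. No arrays overlapped, and it was 3.28 times higher in DKO, a difference of 1.71 (SE 0.28, adjusted p = 0.000371). Depdc1a, a regulator of mitosis, ranged over 5.22 to 6.06 in DKO, against 3.77 to 4.52 in WT, with a difference of 1.54 (SE 0.26, adjusted p = 0.000572) and of 1.52 on a second probe set. Pmch, the gene of melanin-concentrating hormone, ranged over 5.64 to 6.25 in DKO, against 3.80 to 4.84 in WT, and differed by 1.46 (SE 0.24, adjusted p = 0.000311). It overlaps Parpbp, a recombination gene looked up after the values were seen, which differed by 1.03 (adjusted p = 0.00148), and the 2 signals cannot be told apart here. Rsph4a, a radial spoke protein of cilia, was at 7.16, 6.75, 7.58, 6.73 and 6.46 in DKO, against 7.02, 5.64, 5.83, 4.19 and 4.72 in WT, with WT replicate 1 above 3 of the DKO arrays and a difference of 1.54 (SE 0.38, adjusted p = 0.00945).

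The remaining rises named by rank held less-studied genes and the hepcidin gene Hamp2. BC023105, on chromosome 18, was at 6.09, 6.91, 7.71, 6.05 and 6.35 in DKO, against 3.84, 4.18, 5.66, 4.56 and 4.70 in WT. It had the largest rise, 2.39 (SE 0.57, adjusted p = 0.00734), and the groups did not overlap. D17H6S56E-5 ranged over 7.54 to 9.01 in DKO, against 4.76 to 8.39 in WT, with a difference of 2.18 (SE 0.62, adjusted p = 0.0228); the call ended without DKO replicate 3 (adjusted p = 0.0823), WT replicate 1 or WT replicate 2, without set 2, within set 1, and without DKO replicates 3 and 5. Hamp2, a second hepcidin gene close in sequence to Hamp, was at 9.72, 10.11, 9.47, 7.72 and 8.88 in DKO, against 6.92, 7.29, 9.11, 9.51 and 8.88 in WT. Its difference was 1.64 (SE 0.46, adjusted p = 0.0205), with WT replicates 3 to 5 inside the DKO range. The difference was 0.84 (adjusted p = 0.338) with no set term, its adjusted p was 0.0727 with the set as a random block, and the call ended with only the 4 DEN groups in the fit, without any 1 of DKO replicates 1 to 3 or WT replicates 1 and 2 (adjusted p up to 0.0801) and without DKO replicates 3 and 5. Gdap10 differed by 1.45 (SE 0.40, adjusted p = 0.0196) without overlap, and its call ended without DKO replicate 2 (adjusted p = 0.0512).

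Nrf2 is the transcription factor that turns on glutathione and antioxidant genes when electrophiles reach the cell. Of 30 of its targets and glutathione genes tested, 0 were called higher, 15 lower (50.0%) and 15 not called, at a median of -0.58 (-0.41 within set 1, where 14 were lower). The summed linear signal of the list was 11506 to 14316 on the DKO arrays, against 16634 to 20157 on the WT arrays. Gstp1, a glutathione transferase with the close copy Gstp2, was at 10.05, 9.82, 9.74, 9.52 and 9.74 in DKO, against 10.89, 11.40, 11.17, 10.24 and 10.56 in WT. All DKO values lay below all WT values, at a difference of -1.48 (SE 0.19, adjusted p = 6.53e-05), or 2.79 times lower. Gstm1 and Gstm3, of another transferase family whose members resemble each other, ranged over 9.62 to 9.99 in DKO, against 10.14 to 11.62 in WT, and over 7.03 to 7.55 in DKO, against 8.05 to 9.11 in WT. They differed by -0.77 (SE 0.15, adjusted p = 0.00140) and -0.74 (SE 0.14, adjusted p = 0.00124), and a second probe set of Gstm3 gave -1.32. Txnrd1 (thioredoxin reductase) ranged over 6.77 to 6.93 in DKO, against 7.07 to 7.56 in WT, and differed by -0.65 (SE 0.12, adjusted p = 0.00126). The count was 14 without set 2 and 13 without DKO replicates 3 and 5. The antioxidant response letters TGACNNNGC stood on either strand in 11 of 38 promoter windows of the list (28.947%), against 12.392% of all windows, and in 3 of 19 windows of its called members (15.789%).

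The 12 largest falls also held the enzyme genes Dcxr and Rdh9, which are on none of the lists. Dcxr, a reductase of carbonyl compounds and xylulose, was at 7.30, 7.59, 7.11, 6.85 and 7.17 in DKO, against 8.45, 8.67, 8.12, 7.78 and 8.22 in WT. The groups did not overlap, and it was 2.62 times lower in DKO, with a difference of -1.39 (SE 0.20, adjusted p = 0.000143). Rdh9, a retinol dehydrogenase, was at 8.91, 8.77, 9.00, 9.14 and 9.04 in DKO, against 10.18, 10.54, 9.46, 10.79 and 10.91 in WT, a difference of -1.44 (SE 0.24, adjusted p = 0.000475). The gene 1700007K13Rik ranged over 4.94 to 5.97 in DKO, against 6.52 to 7.91 in WT, and fell by 1.90 (SE 0.29) (adjusted p = 0.000224). Cplane1, which acts in building cilia, differed by -2.15 (SE 0.36, adjusted p = 0.000433) on its brightest probe set, against -0.48 and -0.10 on the others, so this value rests on 1 probe set of 3.

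DEN activation and alkylation repair genes had 1 of 20 members called higher, 3 lower and 16 not called (20% called, against 11.8% of all genes). Their median was -0.17 (-0.08 within set 1, where 1 was higher and 1 lower). Neil3, a glycosylase expressed in S phase, was at 5.47, 5.09, 5.70, 5.96 and 5.47 in DKO, against 4.33, 4.66, 4.67, 4.32 and 4.29 in WT. It was higher on every DKO array, at 0.95 (SE 0.21, adjusted p = 0.00487). Mgmt, which removes alkyl groups from guanine, was at 5.95, 6.02, 5.92, 5.22 and 5.13 in DKO, against 6.03, 6.51, 6.57, 5.43 and 5.78 in WT. The groups overlapped, with a difference of -0.65 (SE 0.17, adjusted p = 0.0114) with all arrays and -0.40 (adjusted p = 0.0673) within set 1. Cyb5r3, which passes electrons to cytochrome b5, differed by -0.72 (SE 0.19, adjusted p = 0.0167), or -0.37 (adjusted p = 0.0761) within set 1, and was not called without DKO replicates 3 and 5.

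Drug oxidation genes, among them the drug receptors CAR and PXR and their targets, had 2 of 28 members called higher, 7 lower and 19 not called. The median was -0.13 (-0.06 within set 1), and not every member is a target of CAR or PXR. Cyp2d10, a cytochrome P450, was at 8.44, 8.43, 8.30, 7.71 and 7.44 in DKO, against 9.51, 9.67, 9.24, 8.55 and 8.48 in WT. The WT arrays of set 2 lay closest to the DKO arrays, and no DKO array reached any WT array. The difference was -1.32 (SE 0.16, adjusted p = 3.70e-05). Nr1i3, the gene of CAR itself, was at 6.86, 6.73, 6.48, 6.46 and 7.10 in DKO, against 7.79, 7.86, 7.45, 8.19 and 9.41 in WT, and was lower on every DKO array, by 1.29 (SE 0.25) (adjusted p = 0.00162). Cyp2b9 and Cyp2b13 belong to a cytochrome P450 family that CAR regulates. Cyp2b9 was at 3.80, 9.33, 4.00, 9.11 and 5.32 in DKO, against 9.99, 10.05, 9.92, 3.70 and 9.54 in WT. Cyp2b13 was at 3.54, 6.74, 2.73, 5.50 and 3.78 in DKO, against 7.46, 8.01, 7.50, 2.61 and 7.22 in WT. Both were low on DKO replicates 1, 3 and 5 and on WT replicate 4, so that the groups overlapped. The differences were -4.11 (SE 1.08, adjusted p = 0.0137) and -3.38 (SE 0.71, adjusted p = 0.00292). The call of Cyp2b9 ended without DKO replicate 1 (adjusted p = 0.0640), without DKO replicate 3, without both DKO replicates 3 and 5, and with no set term, and that of Cyp2b13 with no set term.

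Fatty acid oxidation and ketogenesis genes, which supply the suckling liver with energy from milk fat, had 0 of 31 members called higher, 10 lower and 21 not called, at a median of -0.45 (-0.32 within set 1). Slc25a20, the carrier of acylcarnitine into mitochondria, was at 6.23, 6.34, 6.47, 5.88 and 6.05 in DKO, against 7.07, 6.94, 7.11, 6.60 and 6.83 in WT. The highest DKO value lay below the lowest WT value, and the difference was -0.75 (SE 0.10, adjusted p = 8.21e-05). Ehhadh, a peroxisomal oxidation enzyme, ranged over 6.17 to 7.17 in DKO, against 7.62 to 8.30 in WT, with a difference of -1.11 (SE 0.20, adjusted p = 0.000708). Plin2, which coats lipid droplets, and the mitochondrial enzymes Acaa2 and Acadvl overlapped between the groups, at -0.69 (SE 0.13, adjusted p = 0.00134), -0.63 (SE 0.13, adjusted p = 0.00183) and -0.53 (SE 0.12, adjusted p = 0.00549). Without DKO replicates 3 and 5 the count was 7.

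Gluconeogenesis, amino acid and urea genes had 0 of 30 members called higher, 12 lower and 18 not called, at a median of -0.44 (-0.30 within set 1, where 12 were lower). Pck1, which commits carbon to glucose, was at 8.27, 8.42, 7.91, 7.73 and 8.02 in DKO, against 9.12, 8.55, 9.19, 9.95 and 9.99 in WT. Every DKO array lay below every WT array, at a difference of -1.06 (SE 0.21, adjusted p = 0.00183). Asl, of the urea cycle, was at 8.37, 8.35, 8.22, 7.83 and 8.09 in DKO, against 9.81, 8.94, 8.98, 9.37 and 9.00 in WT, and differed by -1.17 (SE 0.25, adjusted p = 0.00347), again without overlap. Got2, a mitochondrial aminotransferase, ranged over 7.63 to 8.84 in DKO, against 8.90 to 9.40 in WT, for -0.87 (SE 0.18, adjusted p = 0.00253), and its second probe set gave -0.89. Hgd, of tyrosine breakdown, and Agxt, which detoxifies glyoxylate, overlapped between the groups, at -0.59 (SE 0.10, adjusted p = 0.000708) and -0.84 (SE 0.19, adjusted p = 0.00524). The count was 11 without set 2 and 8 without DKO replicates 3 and 5.

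Lipid synthesis and bile acid genes showed fewer calls. Cholesterol and fatty acid synthesis genes had 1 of 34 members called higher, 5 lower and 28 not called (17.6% called, against 11.8% of all genes). Their median was -0.20. Fads2, a desaturase, was at 8.66, 8.54, 8.82, 8.09 and 8.11 in DKO, against 8.97, 9.61, 9.45, 9.59 and 9.63 in WT, without overlap, for -1.20 (SE 0.24, adjusted p = 0.00200), or -0.67 within set 1. Acly, which makes cytosolic acetyl-CoA, and Hsd17b7, of cholesterol synthesis, differed by -0.75 (SE 0.16, adjusted p = 0.00318) and -0.74 (SE 0.14, adjusted p = 0.00127). The 1 member called higher, Idi1 (0.58, SE 0.19, adjusted p = 0.0425, named after its value was seen), was not called without any 1 of WT replicates 1, 4 and 5 or DKO replicates 2 to 4. Bile acid synthesis and transport genes had 0 of 23 called higher, 3 lower and 20 not called, at a median of -0.20. The share called was 13%, near the 11.8% of all genes. Cyp27a1, an enzyme of bile acid synthesis, was at 6.30, 6.54, 6.34, 6.33 and 6.48 in DKO, against 7.12, 7.26, 6.95, 7.14 and 7.63 in WT. It did not overlap, at -0.85 (SE 0.17, adjusted p = 0.00231). Abcg5, a sterol exporter, differed by -0.71 (SE 0.16, adjusted p = 0.00407). Abcb4, which exports phospholipid into bile, differed by -0.51 (SE 0.16, adjusted p = 0.0346), and its call ended without any 1 of WT replicates 1, 2 and 5 or DKO replicate 2 (adjusted p up to 0.103) and with no set term. The bile acid list had 1 member higher without WT replicate 2 or without WT replicate 3, and 2 lower without WT replicate 2 or WT replicate 5.

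Growth hormone and IGF axis genes had 0 of 19 members called higher, 3 lower and 16 not called (15.8% called, near the 11.8% of all genes). Their median was -0.04 (0.03 within set 1, where 1 was lower). Igfbp2, which binds insulin-like growth factors, was at 7.02, 7.36, 7.20, 6.68 and 7.18 in DKO, against 7.56, 8.05, 8.20, 9.57 and 9.05 in WT. The groups did not overlap, at -1.32 (SE 0.31, adjusted p = 0.00639), or -0.74 within set 1. Igfbp4 was at 8.05, 8.42, 8.00, 7.66 and 7.77 in DKO, against 8.46, 8.40, 8.50, 10.75 and 10.98 in WT, with both arrays of set 2 far above the rest. Its difference was -1.01 (SE 0.32, adjusted p = 0.0419), and -0.30 (adjusted p = 0.136) within set 1. The call of Igfbp4 ended without any 1 of DKO replicates 1, 3, 4 and 5 or WT replicates 4 and 5 (adjusted p up to 0.0807) and without DKO replicates 3 and 5. Igfbp3 differed by -0.59 (SE 0.18, adjusted p = 0.0293), and -0.32 (adjusted p = 0.212) within set 1. Its call ended without WT replicate 1 (adjusted p = 0.0554), DKO replicate 3, or DKO replicates 3 and 5. The count of 3 was 1 without DKO replicate 3, without set 2 and without DKO replicates 3 and 5, and without WT replicate 1 or WT replicate 3 there was also 1 higher.

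Pericentral and Wnt target genes had 0 of 21 members called higher, 4 lower and 17 not called (19% called, against 11.8% of all genes). Their median was -0.21 (-0.07 within set 1). Aldh3a2, an aldehyde dehydrogenase for fatty aldehydes, was at 8.40, 8.30, 8.39, 8.28 and 8.22 in DKO, against 8.90, 9.27, 9.11, 9.14 and 9.60 in WT. It was lower on every DKO array, at -0.85 (SE 0.13, adjusted p = 0.000184); Cyp27a1 and Gstm3, described above, are on this list too. ATF4 and unfolded protein response genes had 0 of 31 called higher, 4 lower and 27 not called, at a median of -0.09. The share called was 12.9%, near the 11.8% of all genes. Slc3a2, a subunit of amino acid transporters, ranged over 5.95 to 6.53 in DKO, against 6.71 to 7.51 in WT, for -0.96 (SE 0.21, adjusted p = 0.00392). Vldlr, a lipoprotein receptor, differed by -0.50 (SE 0.14, adjusted p = 0.0179), a call that ended without DKO replicate 2 (adjusted p = 0.0957), DKO replicate 3, WT replicate 1, or DKO replicates 3 and 5. Pdia4, a chaperone of the endoplasmic reticulum, differed by -0.45 (SE 0.13, adjusted p = 0.0233), which ended without WT replicate 3 (adjusted p = 0.0701) or WT replicate 2, and a dim second probe set gave 0.35. Without WT replicate 3 the ATF4 list had 1 higher and 3 lower. Fetal and imprinted genes had 1 of 20 lower (Igf2r, -0.52, SE 0.15, adjusted p = 0.0264), at a median of -0.04. The list of clock genes had 1 of 21 lower (Tspan4, -0.70, SE 0.19, adjusted p = 0.0147), at a median of -0.22. Both lists had 0 higher, and both genes were named after their values were seen. With 5% and 4.76% called, both lay below the 11.8% of all genes. Tspan4 is not a core clock gene, and no other member of that list was called. The call of the fetal list was lost without any 1 of DKO replicate 1 or WT replicates 1 and 2, and without DKO replicates 3 and 5, and it gained 1 higher without DKO replicate 4 or WT replicate 3. The clock list had 2 or 3 lower without any 1 of WT replicates 1 to 3 or DKO replicate 4, and 0 without set 2.

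Acute phase proteins, which hepatocytes secrete in inflammation, had 3 of 29 members called higher, 4 lower and 22 not called, at a median of 0.02 (-0.07 within set 1). Serpina3n, a protease inhibitor, was at 9.47, 9.70, 9.56, 9.68 and 9.27 in DKO, against 10.63, 10.43, 10.46, 11.53 and 10.80 in WT. Every DKO array lay below every WT array, and the difference was -0.98 (SE 0.15, adjusted p = 0.000196). Hp (haptoglobin) and Hpx (hemopexin), which bind free haemoglobin and haem, ranged over 11.25 to 11.41 in DKO, against 11.50 to 11.80 in WT, and over 10.84 to 10.99 in DKO, against 11.27 to 11.74 in WT. They differed by -0.55 (SE 0.11, adjusted p = 0.00250) and -0.46 (SE 0.12, adjusted p = 0.0100). The 3 called higher were Hamp2, described above, Saa3 (adjusted p = 0.0303) and A2m (adjusted p = 0.0326), the last 2 named after their values were seen. Their count was 0 without DKO replicate 3, 1 without DKO replicate 1, 1 without WT replicate 2 and 5 without WT replicate 3, 1 within set 1 and without set 2, and 0 without DKO replicates 3 and 5. Genes of IL-6 signalling and inflammatory cytokines had 1 of 37 higher, 4 lower and 32 not called, at a median of -0.11. The share called was 13.5%, near the 11.8% of all genes. Tnfrsf1a, a receptor of TNF, was at 6.58, 6.31, 6.49, 6.01 and 5.81 in DKO, against 7.31, 7.07, 7.12, 6.63 and 6.41 in WT, with a difference of -0.78 (SE 0.12, adjusted p = 0.000196). DKO replicates 1 and 3 lay above WT replicate 5, and the other 4 WT arrays lay above all DKO arrays. Jak1, a kinase of cytokine receptors, differed by -0.43 (SE 0.12, adjusted p = 0.0221) and was not called without WT replicate 1 (adjusted p = 0.0561). The chemokine Cxcl9 was at 6.81, 6.61, 6.73, 5.82 and 5.63 in DKO, against 4.50, 5.58, 5.93, 5.85 and 5.82 in WT, a difference of 1.11 (SE 0.30, adjusted p = 0.0180), and its call ended without WT replicate 1 (adjusted p = 0.0793), without any 1 of DKO replicates 1 to 3 and without set 2. The IL-6 list had 1 lower without WT replicate 1, 2 without DKO replicate 1 or 2, 0 higher without any 1 of these or DKO replicate 3, and 2 higher without WT replicate 4.

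Interferon-stimulated genes had 5 of 32 members called higher, 1 lower and 26 not called, at a median of 0.14 (0.25 within set 1, where 10 were higher). Iigp1, an interferon-induced GTPase, was at 10.07, 10.22, 10.55, 9.67 and 9.76 in DKO, against 9.22, 9.46, 9.91, 9.02 and 8.98 in WT. WT replicate 3 lay above DKO replicates 4 and 5, and the difference was 0.87 (SE 0.19, adjusted p = 0.00406). Trim30a, a ubiquitin ligase with close copies beside it, was at 6.91, 6.37, 6.87, 7.09 and 6.69 in DKO, against 5.43, 5.70, 6.32, 5.34 and 5.10 in WT. No arrays overlapped, at 0.82 (SE 0.21, adjusted p = 0.0114), although the call ended, narrowly, without DKO replicate 1. Ifi35 went the other way at -0.58 (SE 0.13, adjusted p = 0.00470). The count of 5 was 1 without DKO replicate 1, 2 (with 2 lower) without WT replicate 2, 3 without WT replicate 1, 3 without DKO replicate 3, and 3 without DKO replicates 3 and 5. MHC class I genes had 1 of 15 higher (Erap1, 0.37, SE 0.11), 1 lower (Calr, -0.52, SE 0.15) and 13 not called, both named after their values were seen. The share called was 13.3%, near the 11.8% of all genes. The median was 0.12, and within set 1 it was 0.22, with 4 called higher and 0 lower. Erap1 was not called without any 1 of DKO replicates 1 to 3 or WT replicates 1 and 2, and without DKO replicate 3 there were 2 lower.

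Markers of the liver's cell types were counted in the same way. In whole liver, fewer cells of a type and less RNA per cell cannot be told apart. Hepatocyte markers had 0 of 18 called higher, 3 lower and 15 not called (16.7% called, against 11.8% of all genes). Their median was -0.19, and their summed linear signal was 43974 to 49147 on the DKO arrays, against 46463 to 52548 on the WT arrays. Alb (albumin) differed by 0.09 (SE 0.10, adjusted p = 0.626). Hnf4a, a transcription factor of hepatocyte identity, was at 7.32, 7.35, 7.14, 7.01 and 6.96 in DKO, against 7.68, 7.77, 7.57, 8.12 and 8.55 in WT, with a difference of -0.66 (SE 0.20, adjusted p = 0.0316). Asgr1, the asialoglycoprotein receptor, and F2 (prothrombin) differed by -0.48 (SE 0.12, adjusted p = 0.0121) and -0.48 (SE 0.15, adjusted p = 0.0331). The call of Hnf4a ended without DKO replicate 3 (adjusted p = 0.0793), DKO replicate 1, or DKO replicates 3 and 5. That of F2 ended without DKO replicate 1 (adjusted p = 0.0574), DKO replicate 3, WT replicate 5 or DKO replicates 3 and 5, and F2 was not called within set 1. The list had 1 lower without DKO replicate 1, DKO replicate 3, or DKO replicates 3 and 5, and gained 1 higher without any 1 of WT replicates 1 and 3 or DKO replicate 1.

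Sinusoidal endothelium, whose cells lack the albumin-driven Cre, had 0 of 27 markers called higher, 12 lower and 15 not called, at a median of -0.46 (-0.36 within set 1, where 7 were lower). The summed linear signal of these markers was 1446 to 1806 on the DKO arrays, against 1926 to 2516 on the WT arrays. Tek, the receptor of angiopoietins, was at 5.38, 5.49, 5.69, 5.12 and 5.17 in DKO, against 6.60, 6.80, 5.99, 5.65 and 6.41 in WT. Only DKO replicate 3 lay above a WT array, and the difference was -1.02 (SE 0.16, adjusted p = 0.000309). Aqp1, a water channel, was at 6.25, 6.40, 6.10, 5.30 and 5.75 in DKO, against 7.10, 7.45, 6.78, 5.89 and 6.46 in WT, with WT replicate 4 below 3 of the DKO arrays, and differed by -1.01 (SE 0.16, adjusted p = 0.000285). Cdh5, the cadherin of endothelial junctions, and Gpr182, a receptor of sinusoidal cells, ranged over 6.24 to 7.02 in DKO, against 7.06 to 7.78 in WT, and over 5.72 to 6.09 in DKO, against 6.50 to 7.53 in WT. Neither overlapped, at -0.87 (SE 0.19, adjusted p = 0.00347) and -0.95 (SE 0.20, adjusted p = 0.00275). Pecam1, the endothelial adhesion protein CD31, differed by -0.72 (SE 0.14, adjusted p = 0.00183) with only DKO replicate 1 above a WT array. The count of 12 was 8 without set 2 and 9 without DKO replicates 3 and 5, and 1 marker was called higher without WT replicate 3.

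The counts differed among the other cell types, and are to be read beside the 11.8% of all genes that were called. By limma, Kupffer cell and macrophage markers had 0 of 22 called (5 lower at an unadjusted p under 0.05), lymphocyte markers 0 of 17 (2 higher) and megakaryocyte markers 0 of 10 (1 higher and 1 lower), with medians of -0.02, 0.07 and 0.09. Without DKO replicate 3, 1 macrophage marker was lower, without WT replicate 3, 1 lymphocyte marker was higher, and without DKO replicate 2 or DKO replicate 3, 1 megakaryocyte marker was lower. Within set 1, 1 lymphocyte and 1 megakaryocyte marker were called higher. Neutrophil markers had 1 of 16 lower (Ltf, lactoferrin, -1.13, SE 0.29, adjusted p = 0.0104), and stellate cell and matrix markers 2 of 29 (Sparc, -0.52, SE 0.12, adjusted p = 0.00449, and Acta2, -0.62, SE 0.18, adjusted p = 0.0233), named after their values were seen; without WT replicate 4 the stellate list had 4 lower, and without DKO replicates 3 and 5 the neutrophil list had 0, and within set 1 it had 1 higher and 1 lower. Cholangiocyte and progenitor markers had 0 of 14 higher, 3 lower and 11 not called. Krt8, a keratin that hepatocytes also make, was at 8.77, 8.73, 8.74, 9.36 and 9.11 in DKO, against 10.44, 9.87, 9.44, 9.95 and 9.55 in WT, without overlap, for -1.30 (SE 0.21, adjusted p = 0.000326), and its partner Krt18 differed by -0.91 (SE 0.20, adjusted p = 0.00378). Prom1 differed by -0.76 (SE 0.21, adjusted p = 0.0179), a call that ended without WT replicate 2 (adjusted p = 0.0597) and was not reached within set 1; without WT replicate 3 the list had 1 higher. Erythroid markers had 1 of 13 higher and 2 lower. Rhd differed by 0.55 (SE 0.14, adjusted p = 0.0134), Alas2 by -0.63 (SE 0.17, adjusted p = 0.0157) and Epor by -0.45 (SE 0.13, adjusted p = 0.0252). The call of Rhd ended without DKO replicate 2 (adjusted p = 0.0713), that of Alas2 without DKO replicate 1 (0.0802) or WT replicate 1, and that of Epor without WT replicate 2 (0.0649) or DKO replicate 1, and Epor was not called within set 1 or without set 2. The count of lower erythroid markers was 1 without WT replicate 1 or WT replicate 2 and 0 without DKO replicate 1, and without DKO replicate 3 there were 2 higher.

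The array set term bore on part of these calls. With no set term, 22 of the 102 named calls ended. These were Hamp2, Cxcl9 (0.79) and Rhd (0.37) among the rises. Among the falls they were Mdm2, Rfc2, Cyp2b9 (-2.33), Cyp2b13 (-2.10), Aqp1 (-0.78), Tnfrsf1a (-0.67), Prom1 (-0.50), Txnrd1 (-0.42), Mgmt (-0.42), Ifi35 (-0.42), Agxt (-0.42), Hgd (-0.39), Plin2 (-0.38), Hp (-0.35), Acadvl (-0.34), Vldlr (-0.29), Krt18 (-0.26), Asgr1 (-0.24) and Abcb4 (-0.20), each with its difference in that fit. Rpa3 kept its call at 1.51, against 0.90 with the term. With the set as a random block, the calls of Hamp2, Agxt, Abcb4, Asgr1 and Krt18 ended (adjusted p of 0.0510 to 0.141), and within set 1, 8 of the 102 ended.

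**Figure D3:**
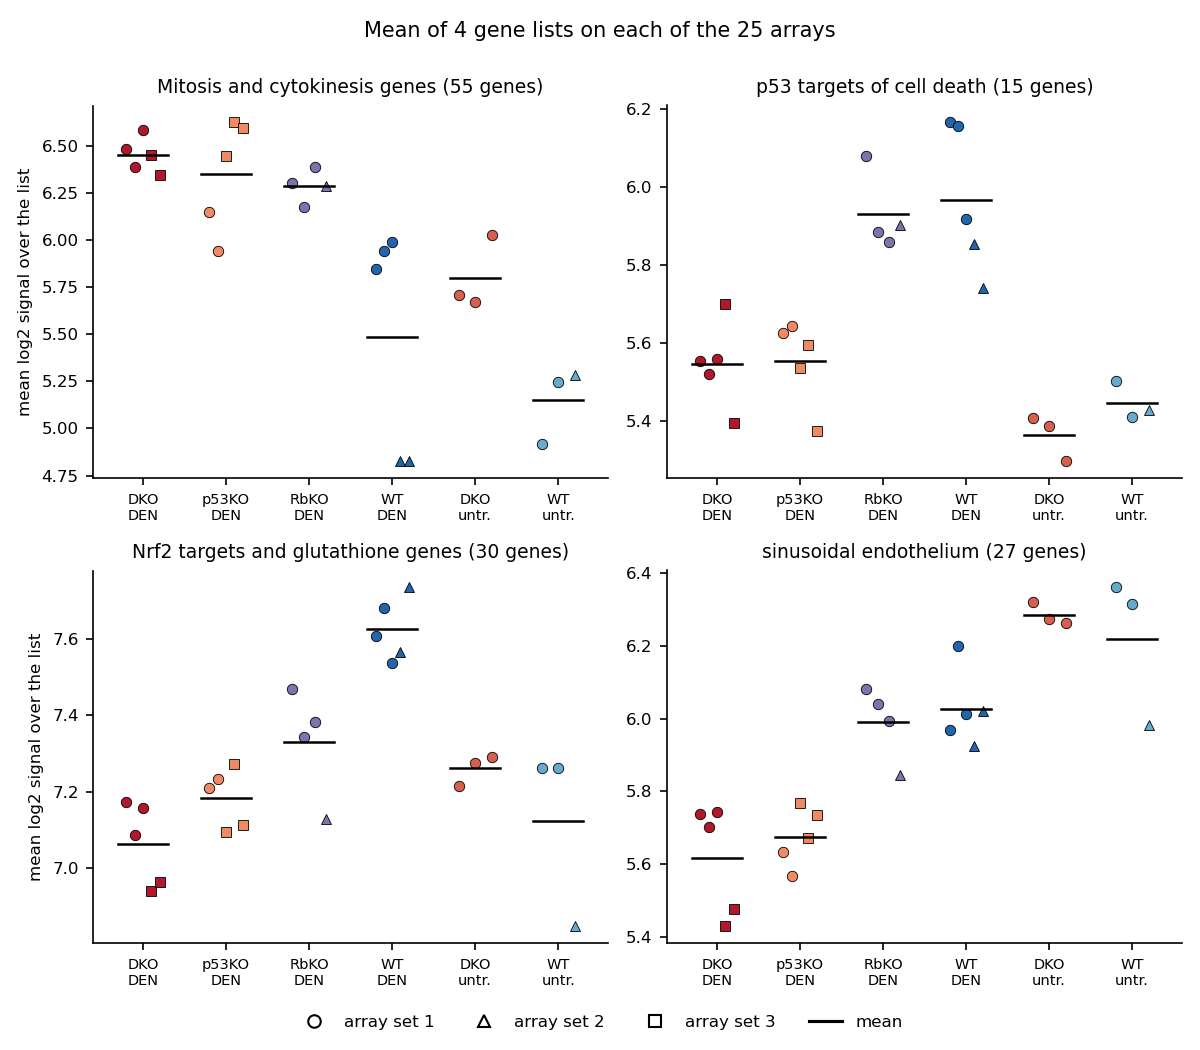
Mean log2 signal over the members of 4 lists on each of the 25 arrays, by group, with the DEN groups to the left and the untreated groups to the right; symbols mark the array set and lines the group mean. After DEN the Nrf2 list lay between 6.94 and 7.17 on the DKO arrays, against 7.54 to 7.73 on the WT arrays, and the endothelial list between 5.43 and 5.74 on the DKO arrays, against 5.92 to 6.20 on the WT arrays.

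The livers with a single loss are given for context. DKO, p53KO and RbKO are set against the same 5 WT arrays, so these differences are not independent and are given side by side. Against WT, p53KO livers had 284 genes called (1.78%; 0.708% higher and 1.07% lower) and RbKO livers 1811 (11.4%; 5.23% higher and 6.13% lower). Of the 102 named genes called in DKO, 23 were also called in both single knockouts, 11 in p53KO alone, 30 in RbKO alone and 38 in neither; a gene not called in one comparison and called in another is not shown to differ between them. Ephx1 differed from WT by -1.89 in DKO, -1.68 (SE 0.17, adjusted p = 3.12e-06) in p53KO and -0.42 (SE 0.15, adjusted p = 0.0662) in RbKO. Ndc80 differed by 1.44 in DKO, 1.25 (SE 0.23, adjusted p = 0.00644) in p53KO and 1.21 (SE 0.20, adjusted p = 0.00131) in RbKO. Pola1 differed by 1.02 in DKO, 0.25 (SE 0.18, adjusted p = 0.510) in p53KO and 0.98 (SE 0.15, adjusted p = 0.00131) in RbKO. The mitosis list had medians of 0.73 in DKO, 0.58 in p53KO (5 of 55 called higher, 31 at an unadjusted p under 0.05) and 0.84 in RbKO (33 called higher, 40 unadjusted). The Nrf2 list had 15 of 30 members lower in DKO, 4 in p53KO and 6 in RbKO. Gluconeogenesis and amino acid genes had 12 of 30 lower in DKO, 2 in p53KO and 12 in RbKO. Of the named calls, 8 of 34 in p53KO and 20 of 53 in RbKO held without any 1 array.

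**Figure D4:**
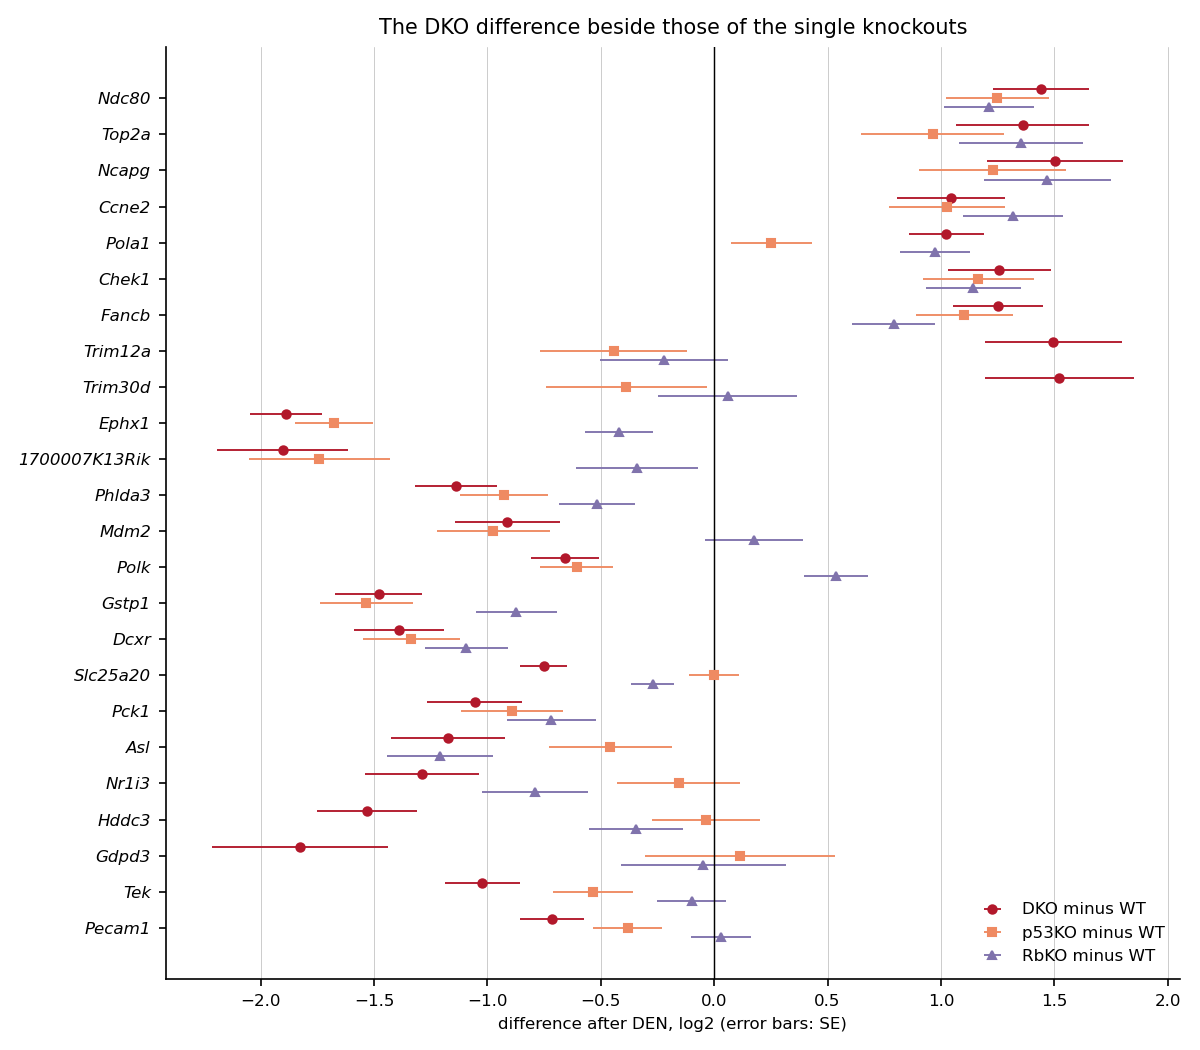
Difference from the shared WT arrays after DEN in DKO, p53KO and RbKO, in log2 units with the standard error from limma, for 24 genes. Ephx1 lies at -1.89 in DKO, -1.68 in p53KO and -0.42 in RbKO, and Pola1 at 1.02 in DKO, 0.25 in p53KO and 0.98 in RbKO.

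Set directly against the single knockouts, DKO livers differed in fewer genes: 298 against p53KO (1.87%; 0.357% higher and 1.51% lower) and 164 against RbKO (1.03%; 0.144% higher and 0.884% lower). The p53 targets of arrest and repair had 4 of 19 lower in DKO than in RbKO, and 1 called, higher in DKO, against p53KO. The death targets had 3 of 15 lower than in RbKO, and by limma 0 called against p53KO (1 higher and 1 lower at an unadjusted p under 0.05). Ephx1 was lower in DKO than in RbKO by -1.47 (SE 0.16, adjusted p = 2.69e-05), Polk by -1.20 (SE 0.15, adjusted p = 0.000219) and Tek by -0.92 (SE 0.17, adjusted p = 0.00485), and these calls held without any 1 array. Against WT, Polk was at -0.66 in DKO but was called higher in RbKO by limma, a call that ended without RbKO replicate 4 (adjusted p = 0.146). Its -1.20 is thus not a fall in DKO alone. By limma the mitosis list had 0 of 55 called against p53KO (3 higher at an unadjusted p under 0.05) or RbKO (1 higher and 1 lower), with medians of 0.18 and -0.04; a p that misses the threshold does not show that the genotypes act alike. Pola1 was higher in DKO than in p53KO by 0.77 (SE 0.15, adjusted p = 0.00727). Nr1i3 was lower in DKO than in p53KO by -1.13 (SE 0.22, adjusted p = 0.00830) and Aldh3a2 by -0.71 (SE 0.11, adjusted p = 0.00157), with both calls holding without any 1 array. Called apart from both single knockouts were 6 named genes: Trim30d, Trim12a, Gdpd3, Hddc3, Rdh9 and Slc25a20. Slc25a20 differed by -0.75 (SE 0.09, adjusted p = 0.000102) from p53KO and -0.48 (SE 0.10, adjusted p = 0.0201) from RbKO, where the call ended without any 1 of 2 arrays (adjusted p up to 0.0843). Rdh9 differed by -0.90 (SE 0.22, adjusted p = 0.0267) and -0.98 (SE 0.25, adjusted p = 0.0498), with adjusted p up to 0.0825 and 0.178 without single arrays.

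Untreated livers had 177 genes called between DKO and WT (1.11%; 0.865% higher and 0.244% lower). The mitosis list had a median of 0.51 there, with 0 of 55 called by limma and 27 higher at an unadjusted p under 0.05. The median was -0.01 for the arrest and repair targets, -0.04 for the Nrf2 list and -0.05 for the endothelial list. Between the DEN and the untreated difference, tested as an interaction, 1580 genes were called (9.91%; 1.36% higher and 8.54% lower), among them 10 of 30 in the Nrf2 list, 9 of 27 in the endothelial list and 1 of 55 in the mitosis list. Of the named genes, 6 were called in untreated livers, and Hamp2 and Gdpd3 held without any 1 array. Hamp2 was at 9.84, 10.40 and 10.20 in untreated DKO, against 6.20, 6.41 and 9.09 in untreated WT, a difference of 3.46 (SE 0.53, adjusted p = 0.000907).

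Of the 12 largest rises and 12 largest falls, 7 of 24 (29.2%) lay on chromosome 7, against 8.26% of the genes tested (1318 of 15951) and 7.79% of the genes called (147 of 1887). Some of the 7 are close copies of each other or neighbours, so they are not 7 separate observations, and the share was counted after the values were seen and not tested. Gdpd3, Hddc3 and Trim30d were called in untreated livers too. Trim12a, a gene of the Trim5 family beside Trim30a and Trim30d, was at 4.81, 4.52, 4.50, 4.88 and 4.51 in DKO, against 2.56, 2.68, 4.65, 2.54 and 2.60 in WT after DEN. WT replicate 3 lay with the DKO arrays, and the other 4 WT arrays lay far below. The difference was 1.50 (SE 0.30, adjusted p = 0.00212). Untreated, it was at 3.98, 4.68 and 4.07 in DKO, against 2.68, 2.67 and 2.98 in WT, for 1.36 (SE 0.35, adjusted p = 0.0547). Trim30d was at 6.08, 5.26, 5.67, 6.47 and 5.36 in DKO, against 3.52, 3.40, 5.39, 3.71 and 3.63 in WT after DEN, with WT replicate 3 again inside the DKO range, and differed by 1.52 (SE 0.33, adjusted p = 0.00371), against 1.56 (SE 0.38, adjusted p = 0.0412) untreated. Gdpd3, a lysophospholipase D, was at 5.82, 5.94, 3.47, 3.75 and 3.93 in DKO, against 6.59, 7.15, 6.58, 4.94 and 5.81 in WT after DEN, and its groups overlapped, for -1.83 (SE 0.39, adjusted p = 0.00329). Untreated, it was at 3.52, 3.44 and 3.78 in DKO, against 7.18, 7.63 and 6.23 in WT, for -3.93 (SE 0.45, adjusted p = 3.11e-05). Hddc3, a phosphohydrolase, was at 4.92, 4.39, 5.56, 5.08 and 4.78 in DKO, against 6.64, 6.16, 5.87, 6.05 and 6.09 in WT after DEN, without overlap, for -1.53 (SE 0.22, adjusted p = 0.000153), against -1.24 (SE 0.26, adjusted p = 0.0127) untreated. The untreated calls of Trim30d and Hddc3 ended without single arrays (adjusted p up to 0.201 and 0.138). Between DKO and the single knockouts, Trim12a differed by 1.94 (SE 0.27, adjusted p = 0.000316) from p53KO and 1.72 (SE 0.31, adjusted p = 0.00438) from RbKO, and Hddc3 by -1.50 (SE 0.20, adjusted p = 0.000197) and -1.19 (SE 0.22, adjusted p = 0.00731); these 4 calls held without any 1 array. Trim30d and Gdpd3 differed from RbKO by 1.46 (SE 0.33, adjusted p = 0.0287) and -1.78 (SE 0.39, adjusted p = 0.0230), with adjusted p up to 0.119 and 0.0874 without single arrays.

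**Figure D5:**
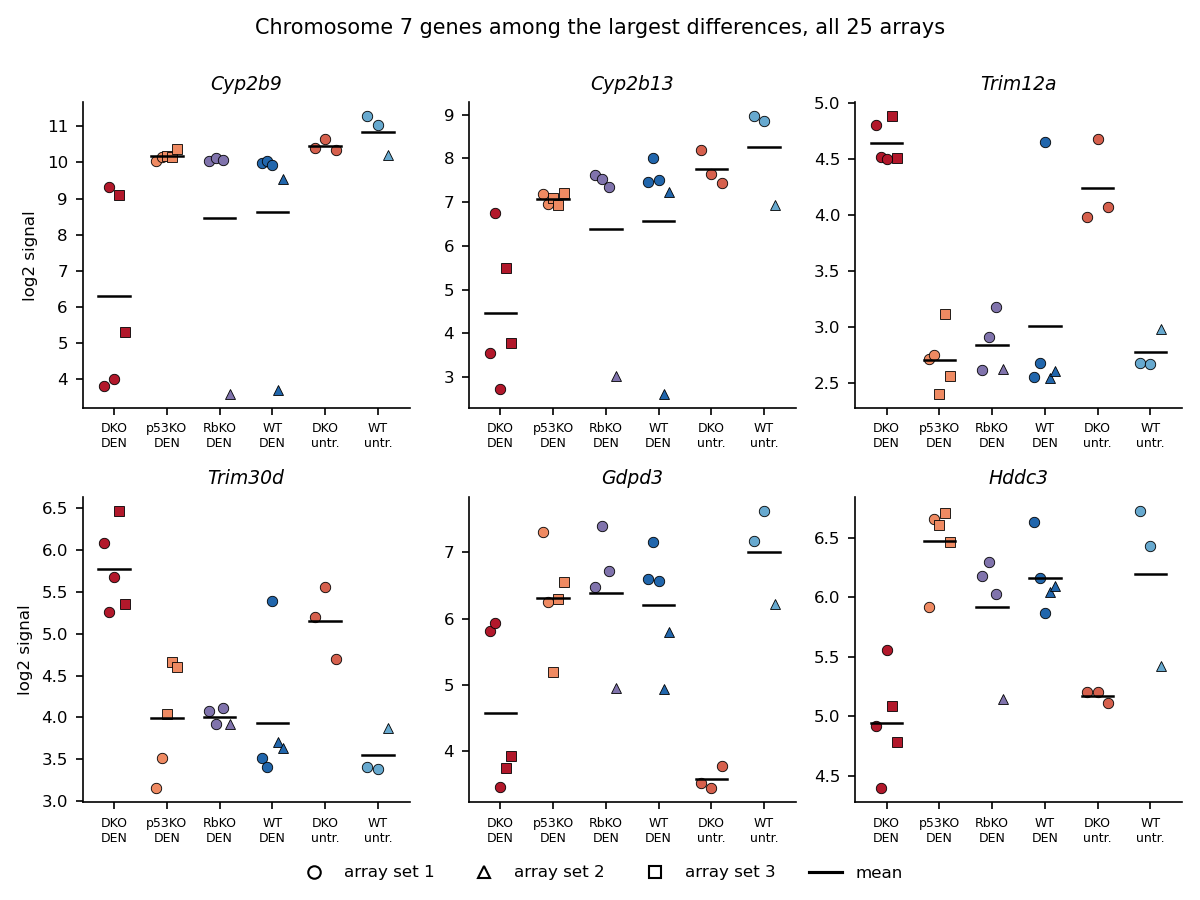
Log2 signal of 6 genes of chromosome 7 on all 25 arrays, by group, with the DEN groups to the left and the untreated groups to the right; symbols mark the array set. Trim12a was between 4.50 and 4.88 on the DKO arrays after DEN, against 2.54 to 2.68 on 4 WT arrays and 4.65 on WT replicate 3.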

How the data were processed

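Per the labels' protocols, RNA of frozen livers went through WT-Ovation Pico amplification and biotin labelling to Affymetrix mouse gene arrays. The authors deposited log2 values of RMA (background correction, quantile normalization, median polish), made in Affymetrix Expression Console 1.1, per the submitters' processing notes; the genome build is not given in the sources used here. Of 35555 probe sets, 21789 had 1 gene symbol. The brightest probe set per gene was kept (19938 genes), and genes with a mean under 3.33 log2, the 20th percentile, were left out (15951 tested). limma 3.58.1 (R 4.3.3) estimated group means and a fixed array set term over the 25 arrays. Tests are two-sided, Benjamini-Hochberg adjusted over all genes in each comparison. SE is limma's. The calculation was tested on simulated data.

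The members and lists were chosen with earlier results of these data known. Of 925 list entries in 33 lists, 837 matched a gene. Named are Rb1, the 12 largest called rises and 12 largest called falls whose sign was the same in set 1, and, per list with at least 3 calls, the 3 members with the lowest p (5 where 10 or more were called), 103 genes in all. Alternatives changed the set term, arrays, filter, probe sets, scaling or variance model 1 at a time, or left out 1 array. Promoter letters come from RefSeq windows.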

Additional observations from a re-analysis of the deposited data

Results flagged for a closer look

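The DKO minus WT difference after DEN differed from that in untreated livers for 45 of the named genes, by limma's interaction term at an adjusted p under 0.05 over all genes; values are the difference after DEN minus the untreated one, in log2 units. Over all genes 9.91% were called so. The named genes were chosen for their difference after DEN, which is 1 of the 2 terms of this contrast, so the number of 45 is partly fixed by that choice and is a description. It was above 0 for 5 genes: BC023105 (2.86), Gdpd3 (2.10), Depdc1a (1.38), Ccne2 (1.18) and Pola1 (0.93). For the other 40 it was below 0. The most negative were Gstp1 (-2.30), Ephx1 (-1.96), Krt8 (-1.80), Plk2 (-1.69), Serpina3n (-1.55), Fads2 (-1.53), Cyp2d10 (-1.51), Igfbp2 (-1.51), Got2 (-1.45), Dcxr (-1.45), 1700007K13Rik (-1.39), Ehhadh (-1.39) and Krt18 (-1.37). They were followed by Pck1 (-1.30), Rfc2 (-1.28), Plin2 (-1.23), Aldh3a2 (-1.20), Agxt (-1.17), Prom1 (-1.16), Aqp1 (-1.15), Acly (-1.11), Igfbp3 (-1.11), Cyb5r3 (-1.07), Tnfrsf1a (-1.05), Cdh5 (-1.03), Gpr182 (-1.03) and Mgmt (-0.98). The remaining ones were Vldlr (-0.92), Sulf2 (-0.88), Acaa2 (-0.87), Pecam1 (-0.87), Acadvl (-0.83), Slc25a20 (-0.83), Abcg5 (-0.83), Tek (-0.77), Hpx (-0.75), F2 (-0.74), Txnrd1 (-0.60), Hgd (-0.60) and Hp (-0.58). Untreated groups had 3 arrays each, all of set 1 apart from WT replicate 3. Which of the interaction calls held without any 1 array is not reported here.

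The 5 DKO and the 5 WT arrays after DEN were examined for single arrays far from the rest, for each of the 103 named genes. Of these 206 groups, 11 held one by Dixon's criterion, which chance passes in about 1 of 20. Values are in log2 signal. In DKO after DEN these were replicate 4 for Acaa2 (9.77), replicate 5 for Gpr182 (5.72) and replicate 2 for Rhd (4.31). In WT after DEN, replicate 4 stood apart for Acly (6.34), Cyp2b9 (3.70) and Cyp2b13 (2.61). WT replicate 1 did so for Cxcl9 (4.50) and Fads2 (8.97), and WT replicate 5 for Rb1 (5.04). WT replicate 3 did so for Trim12a (4.65) and Trim30d (5.39).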

How the results depend on the processing

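The number of genes called between DKO and WT after DEN was 1887. It was 696 with only the 10 arrays compared and no set term, 523 with only these arrays and the set term, 1173 with only the 4 DEN groups in the fit, and 1245 without DKO replicates 3 and 5, an alternative chosen after seeing the data; the first 3 use fewer arrays. It stayed within 1.5 times of 1887 with set 1 alone (1731), without set 2 (1422), with no set term (1806) or a random one (1871), with the mean of all probe sets (1871), with a dim filter at the 40th percentile (1996) or none (1815), median centring (2284), a further quantile normalization (1531), array weights (2054), trend and robust settings (1835) and Xist as a covariate (1503). Leaving out 1 array in turn gave 1398 (without DKO replicate 3) to 2114 (without WT replicate 3). The share of calls that were lower was 77.3%, 86.7% after median centring and 66.6% after quantile normalization. None of 2675 values of named genes under alternatives reversed; 2436 stayed on their side of the threshold, 236 lost the call and 3 gained it. Of 102 named calls, 79 held without any 1 array. Of the same 102, 42 ended with only the 10 arrays and no set term, 37 with only these and the term, 22 with no set term, 11 with only the 4 DEN groups, 11 after quantile normalization, 8 within set 1, 7 without set 2, 6 with Xist as a covariate and 5 with a random set term. Of 858 list medians, 33 moved by more than the SD of the list's mean over the 5 WT arrays after DEN. That SD includes the difference between array sets 1 and 2, so it is a wide limit for lists in which the sets differ. In the comparisons with single knockouts and untreated livers, the interaction included, 522 of 2611 values lost the call. No paired analysis was possible because the replicate numbers follow the order of the samples only. Dim probe sets near background, and 5 arrays a group, limit what could be called.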
